A study of Mus musculus with 2 samples.

Results

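Mrc1, Mgl2 and Clec10a (lectins that bind sugars), Msr1, Cd163 and Lyve1 (scavenger and hyaluronan receptors), Folr2 (a folate receptor), and Retnla, Chil3 and Ccl24 (secreted proteins) were followed through the myeloid cells of B16-F10 melanoma, a transplanted mouse skin tumor. These 10 genes are the ones usually read as alternative activation genes of mouse macrophages, and they were taken by symbol from the 31253 genes listed for both libraries. Cells with under 10% of their unique molecular identifiers (UMIs, 1 per captured transcript molecule) on mitochondrial genes and with over 200 genes were kept.

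The tumors grew for 10 days in C57BL/6 mice (the methods give C57BL/6J as the background of the Irg1-/- line) after 200000 B16-F10 cells had been injected under the skin. One library came from mice labelled Irg1+/+ and one from mice labelled Irg1-/-, and in each the 100 mm3 pieces of the tumors of 3 mice were mixed before 6000 Cd45+ cells were sorted and captured on the BD Rhapsody microwell system. Irg1 (now Acod1) makes itaconate from an intermediate of the citric acid cycle in activated myeloid cells, and the methods list this line apart from a myeloid-specific one, while the injected tumor cells were the same line in both groups. The files listed 6408 and 5896 barcodes for Irg1+/+ and Irg1-/-, and 6284 and 5794 of them were kept, with 42105693 and 35307041 UMIs and medians of 4528 and 4594.5 UMIs per cell. With 1 library of pooled mice per genotype no test between genotypes was possible, and mice, tumors, dissociation and library cannot be told apart from the genotype. Every interval given here is an exact 95% interval (Poisson for levels, conditional binomial for ratios, Clopper-Pearson for shares of cells) and covers counting error only.

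Acod1 was read first as a check on the labels. Its level was 87.8 CPM (that is, the UMIs of a gene scaled to one fixed library total over the cells of a group) in all kept cells of the Irg1+/+ library and 108 CPM in the library labelled Irg1-/-, a log2 ratio of 0.30 (0.23 to 0.36). In the macrophage gate described below it was 86.0 and 150 CPM (log2 ratio 0.81), and in classical monocytes 142 and 123 CPM (-0.21). It was also lower in the library labelled Irg1-/- in the neutrophil gate, where it was highest (1606 and 1154 CPM, -0.48), and in cells without a gate (174 and 123 CPM, -0.50), in eosinophils (-0.47) and in lymphocytes (-0.29). The transcript was thus not lower over all cells, and it was present in each of these groups of cells in the library labelled Irg1-/-. The labels do not say which bases of the gene are deleted, and whether the UMIs counted lie outside them was not tested. Every direction below is one between 2 labelled libraries. The libraries shared 36 of their barcodes, and without those cells the ratios past 1.5-fold in the C1q, classical monocyte and Cd209a gates stayed past it in the same direction, while other gates and states were not rerun.

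Alternative activation is the name given to the state that macrophages take under interleukin-4 and interleukin-13, which signal through the interleukin-4 receptor alpha chain and Stat6. Tissue macrophages that arise before birth carry several of the same receptors (Mrc1, Cd163, Lyve1, Folr2) without that stimulus, and some products (Chil3, Mgl2) are also made by monocytes or dendritic cells, so the genes do not mark 1 cell type. In tumors, Mrc1 (CD206) is the receptor most often used to call a macrophage alternatively activated.

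Promoter sequence for 6 of the 10 genes was found in RefSeq (GRCm38.p6), and 2 windows are shown here because they hold the most matches to the motifs searched and belong to genes that differed between the libraries in most of the gates below (Retnla) or in monocytes (Chil3). They were chosen after their matches had been seen. Each is the 250 bases before the RefSeq start, on the strand of the gene, at chr16:48842359-48842608 (plus strand) for Retnla and at chr3:106167565-106167814 (minus strand) for Chil3. Capitals mark matches, on either strand, to the 5 motifs searched, which were TTC and GAA with 4 bases between them (the spacing that Stat6 dimers prefer), TTCNNNGAA (the spacing of other Stat dimers), TTGCNNAA (C/EBP type), GAGGAAGT (PU.1 type) and TGCTGA (the core bound by Maf proteins).
Retnla: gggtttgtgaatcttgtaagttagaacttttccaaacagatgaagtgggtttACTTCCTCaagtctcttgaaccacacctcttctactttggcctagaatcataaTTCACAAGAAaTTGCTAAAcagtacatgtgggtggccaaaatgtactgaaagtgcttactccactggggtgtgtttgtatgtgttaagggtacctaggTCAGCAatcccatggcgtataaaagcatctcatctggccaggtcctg
Chil3: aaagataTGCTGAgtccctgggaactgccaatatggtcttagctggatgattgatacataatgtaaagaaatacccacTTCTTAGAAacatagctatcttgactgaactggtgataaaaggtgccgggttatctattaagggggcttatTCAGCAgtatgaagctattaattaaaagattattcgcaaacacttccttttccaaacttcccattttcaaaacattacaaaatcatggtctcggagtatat
In Retnla the match to TTC and GAA 4 bases apart lay at -145 to -136 from the start, that to TTGCNNAA at -134 to -127, that to GAGGAAGT on the opposite strand at -198 to -191 and that to TGCTGA on the opposite strand at -47 to -42. Chil3 held TTCNNNGAA at -172 to -164 and TGCTGA once on each strand. No match overlapped another. Among 32851 promoter windows of the same length, 5.85% held TTC and GAA 4 bases apart, 7.02% TTCNNNGAA, 9.56% TTGCNNAA, 2.44% GAGGAAGT and 16.1% TGCTGA. Both annotated starts of Folr2 held only TGCTGA, and the windows of Mrc1, Cd163 and Mgl2 held none of the 5. Lyve1, Msr1, Clec10a and Ccl24 are named only. GENCODE starts Retnla further upstream, at 48842551, so the last bases of its window lie within the gene by that annotation. A match is a description of the letters and says nothing about binding.

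Cells were placed in gates by the highest mean z score over short marker lists that hold none of the 10 genes. The C1q gate (C1qa, C1qb, C1qc, Apoe, Ms4a7, Adgre1) took 786 Irg1+/+ and 717 Irg1-/- cells, the classical monocyte gate 587 and 829, the nonclassical monocyte gate 195 and 186, the Cd209a dendritic cell gate 237 and 331, the type 1 dendritic cell gate 316 and 197, and the mature dendritic cell gate 411 and 345. The leading genes fitted these names, with 4 of its own markers among the 10 leading genes of the C1q gate and 2 in classical monocytes, but only 1 (Cd209a itself) in the Cd209a gate. Chil3 was itself among the 10 leading genes of the classical monocyte gate. A gate is a range of a score and not a sharp class: 90 of 1503 C1q-gated cells, 114 of 1416 classical monocytes and 58 of 568 Cd209a-gated cells had another score within 0.1 of the first. A further 1414 and 1065 cells entered no gate. T, NK and B cell gates, which should lack these genes, served as the measure of free RNA in the wells and of wells with more than 1 cell.

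The 6 gates with cell numbers above are called the 6 myeloid gates here. They leave out the eosinophil, neutrophil, mast cell and plasmacytoid dendritic cell gates. The 10 genes divided among 3 of these 6 gates, and the gate of the 6 with the highest level of each gene was the same in both libraries. Among the 6 myeloid gates, 5 genes (Mrc1, Cd163, Lyve1, Folr2 and Retnla) were highest in C1q-gated macrophages, 3 (Msr1, Chil3 and Ccl24) in classical monocytes and 2 (Mgl2 and Clec10a) in Cd209a-gated dendritic cells. Lymphocytes carried a lower level of each than its highest gate did, and the margin was narrowest for Retnla, whose highest gate stood 3.53-fold (Irg1+/+) and 5.66-fold (Irg1-/-) above lymphocytes. Outside the 6 gates, Retnla was higher still in cells without a gate. These had 203 CPM from 1187 UMIs in Irg1+/+ and 323 CPM from 1518 UMIs in Irg1-/-, where the C1q gate had 888 and 1648 UMIs. Retnla was also higher in the eosinophil gate (1407 CPM in Irg1+/+ and 739 CPM in Irg1-/-). In the eosinophil gate of Irg1+/+ so was Ccl24 (207 CPM from 37 UMIs, against 9.32 CPM from 3 UMIs in Irg1-/-).

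**Figure D1:**
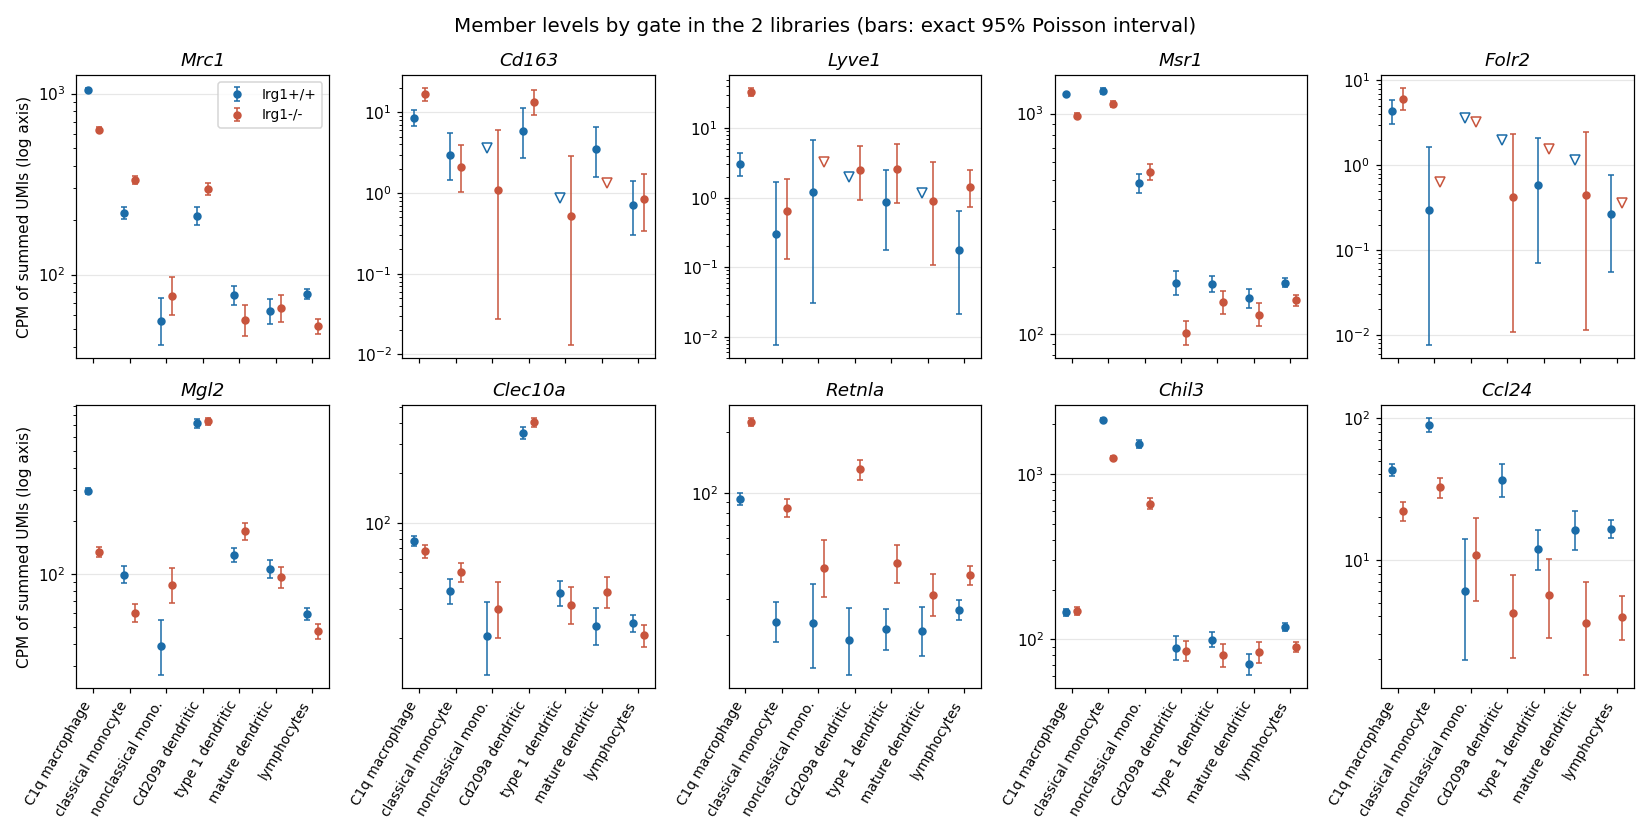
Level of each gene (CPM of UMIs summed over a gate, log axis) in 6 myeloid gates and in the pooled T, NK and B cell gates, for the Irg1+/+ (blue) and Irg1-/- (red) library; bars are exact 95% Poisson intervals, and an open triangle marks a gate without a UMI, drawn at the level of 3 UMIs. Mrc1 is highest in the C1q gate, Chil3 in both monocyte gates and Mgl2 and Clec10a in the Cd209a gate.

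Mrc1, the macrophage mannose receptor that takes up glycoproteins with terminal mannose, gave 9961 UMIs in C1q-gated Irg1+/+ cells and 4667 in Irg1-/- cells, or 1051 CPM and 632 CPM. That is a log2 ratio of -0.74 (-0.79 to -0.68), below that of all but 3.07% of the genes tested in this gate. In classical monocytes the order turned, with 219 CPM in Irg1+/+ and 333 CPM in Irg1-/- (log2 ratio 0.60, 0.47 to 0.73), and in Cd209a-gated dendritic cells Mrc1 stood at 210 and 298 CPM (0.50, 0.31 to 0.70). As a result the C1q gate held 4.80 times the Mrc1 level of the classical monocyte gate in Irg1+/+ but only 1.90 times in Irg1-/-. Lymphocytes had 78.4 and 51.7 CPM, and the nonclassical monocyte gate (55.6 and 76.4 CPM), the type 1 (76.7 and 56.0 CPM) and the mature dendritic cells (62.6 and 65.2 CPM) were closer to it than to the macrophages. The size of the difference in macrophages depended on how cells were weighed and chosen: it was -0.54 with each cell thinned to 2000 UMIs, -0.49 as a mean of the CPM of each cell and -0.22 without cells that carried markers of another lineage, each short of 1.5-fold. In classical monocytes the difference was 0.03 under a gate on marker UMIs.

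Msr1, the class A scavenger receptor for modified lipoproteins, was the gene of the set found in the most C1q-gated cells. At 2000 UMIs per cell it was detected in 81.0% of C1q-gated Irg1+/+ cells and 73.1% of Irg1-/- cells, against 21.5% and 18.8% of lymphocytes; before thinning the median depth was 9604 and 8998 UMIs in the C1q gate and 4307.5 and 4070.5 in the T cell gate. Its level was 1222 and 978 CPM in macrophages (log2 ratio -0.32) and 1267 and 1105 CPM in classical monocytes (-0.20). In Irg1+/+ the intervals of these gates overlapped, so their order was not resolved, whereas in Irg1-/- monocytes were higher. Nonclassical monocytes had 484 and 543 CPM, and Cd209a-gated dendritic cells 170 and 101 CPM, where the ratio of -0.75 (-1.01 to -0.49) was past 1.5-fold but fell short of it without cells that carried markers of another lineage (-0.53). These dendritic cell levels did not stand above those of lymphocytes (170 and 142 CPM).

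Mgl2 and Clec10a are neighbouring genes on chromosome 11 (chr11:70130329-70137550 and chr11:70156197-70170834, GRCm38) that encode lectins for galactose and N-acetylgalactosamine. Both were led by Cd209a-gated dendritic cells, Mgl2 at 720 CPM (678 to 764) in Irg1+/+ and 735 CPM (701 to 770) in Irg1-/-, and Clec10a at 348 and 404 CPM. There the libraries differed little, with log2 ratios of 0.03 (-0.08 to 0.14) and 0.21 (0.06 to 0.37). The pair parted in macrophages. Mgl2 was 297 CPM in C1q-gated Irg1+/+ cells and 133 CPM in Irg1-/- cells, a log2 ratio of -1.16 (-1.27 to -1.05). Clec10a was 77.4 and 67.0 CPM (-0.21, -0.38 to -0.04). Part of the C1q gate, the monocyte-derived cells described below, had 973 and 359 CPM of Mgl2, in Irg1+/+ above the Cd209a gate. Cells without a gate had 340 and 348 CPM of Mgl2 (0.03). Classical monocytes had 98.9 and 59.6 CPM of Mgl2 (-0.73), a direction that turned to 0.38 under a gate on marker UMIs and to 0.13 without cells that carried markers of another lineage. Nonclassical monocytes had 38.7 and 86.1 CPM (1.15, 0.55 to 1.79) from 32 and 80 UMIs, of which 1 Irg1-/- cell held 19, and the Irg1+/+ value lay below that of lymphocytes (59.1 and 47.0 CPM). Of 1561 windows of 75 bases along Mgl2, 9.29% occur in Clec10a as well, but none in its last 500 bases, where reads of this kind fall.

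Cd163, the hemoglobin-haptoglobin receptor, and Lyve1, a hyaluronan receptor found on lymphatic vessels and on macrophages along blood vessels, were scarce. Cd163 gave 81 UMIs in 50 C1q-gated Irg1+/+ cells and 124 UMIs in 46 Irg1-/- cells (8.55 and 16.8 CPM, log2 ratio 0.97, 0.56 to 1.40). Lyve1 gave 29 UMIs in 14 cells and 246 UMIs in 23 cells (3.06 and 33.3 CPM, log2 ratio 3.44, 2.88 to 4.05), with at most 4 UMIs in 1 Irg1+/+ cell and 48 in 1 Irg1-/- cell. The share of cells with Cd163 was close in the libraries (6.36% and 6.42%), while that with Lyve1 was 1.78% and 3.21%. Leaving out the top cell left Cd163 at 0.67 and Lyve1 at 3.34, and without the shared barcodes Lyve1 was 27.6 CPM in Irg1-/- and the ratio 3.17. Lymphatic endothelium also expresses Lyve1, and the sort for Cd45 should remove it. Of its list, Prox1, Ccl21a and Mmrn1 were at 0 in the C1q gate of either library, and Pdpn gave 66.1 of 66.6 CPM and 49.5 of 49.8 CPM. Outside the C1q gate, Cd163 was found in Cd209a-gated dendritic cells (5.90 and 13.5 CPM, 9 and 32 UMIs), with intervals that overlapped those of macrophages, and Lyve1 was at 3 UMIs or fewer in each of the other myeloid gates of Irg1+/+ and at 6 or fewer in those of Irg1-/-.

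Folr2, the folate receptor beta of tissue-resident macrophages, was the rarest gene, at 114 UMIs over all kept cells. Of these, 41 and 45 lay in C1q-gated Irg1+/+ and Irg1-/- cells (4.33 and 6.09 CPM), in 33 and 36 cells with at most 3 UMIs each. The log2 ratio of 0.49 had an interval of -0.15 to 1.14, so no difference was detectable at this depth. Classical monocytes held 1 UMI in Irg1+/+ and 0 UMIs in Irg1-/-. At the depth of the latter 3 UMIs would make 0.636 CPM, the level at which a count of 0 is drawn.

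Retnla, which encodes the secreted protein Fizz1 (RELM alpha), was higher in the library labelled Irg1-/- in each of the 6 myeloid gates. C1q-gated cells had 93.7 CPM in Irg1+/+ and 223 CPM in Irg1-/- (log2 ratio 1.25, 1.13 to 1.37), classical monocytes 23.3 and 84.3 CPM (1.86), nonclassical monocytes 23.0 and 43.0 CPM (0.91), type 1 dendritic cells 21.4 and 45.2 CPM (1.08) and mature dendritic cells 21.0 and 31.7 CPM (0.59). Lymphocytes had 26.6 and 39.4 CPM (0.57, 0.34 to 0.80), which is the level of the Irg1+/+ monocytes and dendritic cells. In Irg1+/+ only the C1q gate of the 6 stood above lymphocytes. In Irg1-/- the C1q, classical monocyte and Cd209a gates did, while the nonclassical monocytes and the type 1 and mature dendritic cells did not beyond their intervals. The transcript sat in few cells. The top 5% of C1q-gated cells held 85.6% and 86.5% of its UMIs, and 1 cell held 307 of 888 UMIs in Irg1+/+ and 416 of 1648 in Irg1-/-. Without that cell the ratio in the C1q gate was 1.44. In Cd209a-gated dendritic cells, with 19.0 and 131 CPM (2.78), 1 Irg1-/- cell held 177 of 309 UMIs, and the ratio was 1.66 without it, 0.57 under a gate on marker UMIs and 0.04 without cells that carried markers of another lineage. The near relatives Retnlg and Retnlb share no window of 75 bases with Retnla.

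**Figure D2:**
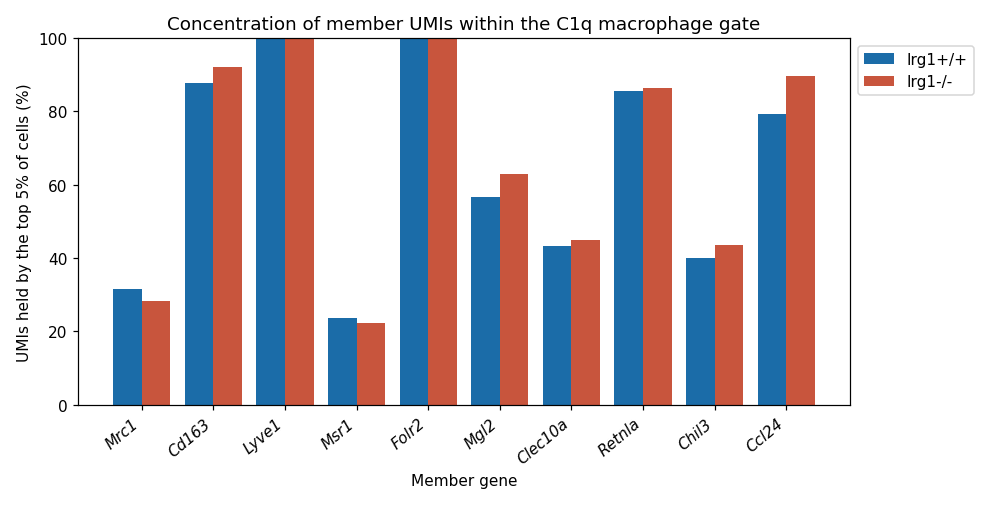
Share of the UMIs of each gene (%) that the top 5% of C1q-gated cells held, in the Irg1+/+ (blue) and Irg1-/- (red) library. Msr1 and Mrc1 are spread over many cells (22.3% to 31.7%), while Retnla (85.6% and 86.5%) and Ccl24 (79.3% and 89.6%) sit in few. Lyve1 and Folr2 are at the upper end because each was found in no more cells than the top 5% holds (14 and 23 cells, 33 and 36 cells).

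Chil3, the chitinase-like protein Ym1, was a monocyte gene in these tumors. Classical monocytes had 2133 CPM in Irg1+/+ and 1244 CPM in Irg1-/- (log2 ratio -0.78, -0.83 to -0.73) and nonclassical monocytes 1516 and 662 CPM (-1.20, -1.34 to -1.06). At 2000 UMIs per cell it was found in 69.8% and 57.5% of classical monocytes, against 14.3% and 13.6% of lymphocytes. C1q-gated macrophages had 146 and 149 CPM (0.03, -0.08 to 0.15), only a little above lymphocytes at 119 and 89.8 CPM, and dendritic cells were below the Irg1+/+ lymphocyte level. With the lymphocyte level of each library taken off, the ratio in the C1q gate was 1.16. The paralog Chil4 shares 8.53% of the 75-base windows of Chil3 (12.4% in its last 500 bases) and had 3 UMIs in all, so reads from either could be counted for the other.

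Ccl24, an eosinophil attractant (eotaxin-2), was lower in the library labelled Irg1-/- in 5 of the 6 myeloid gates, and in lymphocytes. Classical monocytes had 89.3 CPM in Irg1+/+ and 32.4 CPM in Irg1-/- (log2 ratio -1.46, -1.75 to -1.18), C1q-gated macrophages 42.8 and 22.1 CPM (-0.95, -1.23 to -0.69), Cd209a-gated dendritic cells 36.7 and 4.23 CPM (-3.12, from 56 and 10 UMIs), type 1 dendritic cells 11.9 and 5.65 CPM and mature dendritic cells 16.3 and 3.57 CPM. Lymphocytes had 16.6 and 3.97 CPM (-2.07, -2.65 to -1.53). The type 1 and mature dendritic cells did not stand above lymphocytes beyond their intervals in either library, nor did the Cd209a-gated cells in Irg1-/-. The transcript was confined to few cells here too, at 9.54% and 6.63% of classical monocytes. With the lymphocyte level of each library taken off, the ratio in the C1q gate was -0.53, short of 1.5-fold. Nonclassical monocytes had 5 and 10 UMIs.

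Counted by a fixed rule (a ratio past 1.5-fold, and 50 or more UMIs in both libraries together), 3 of the 10 genes were higher in C1q-gated cells of the library labelled Irg1-/- (Cd163, Lyve1 and Retnla) and 3 lower (Mrc1, Mgl2 and Ccl24). Of all 10125 genes that reached 50 UMIs in this gate, 3.56% were higher and 5.47% lower. In classical monocytes 7 genes reached 50 UMIs, of which 2 were higher (Mrc1 and Retnla) and 3 lower (Mgl2, Chil3 and Ccl24), beside 3.85% and 4.34% of all genes. In Cd209a-gated dendritic cells 1 of 7 was higher (Retnla) and 2 lower (Msr1 and Ccl24), beside 4.05% and 4.67%. In nonclassical monocytes 2 of 5 were higher (Mgl2 and Retnla) and 1 lower (Chil3), beside 3.95% and 4.64%. In type 1 dendritic cells 1 of 7 was higher (Retnla) and 1 lower (Ccl24), beside 3.45% and 5.37%, and in mature dendritic cells 2 of 7 were higher (Clec10a and Retnla) and 1 lower (Ccl24), beside 3.6% and 5.48%. Lymphocytes had 0 of 7 higher and 2 lower (Mrc1 and Ccl24), beside 2.79% and 4.07% of all genes. In the cells without a gate 1 of 7 was higher (Retnla) and 2 lower (Chil3 and Ccl24), beside 3.45% and 3.65%. The eosinophil gate had 1 of 5 higher (Mgl2) and 2 lower (Mrc1 and Retnla), beside 7.05% and 8.52%, and the neutrophil gate 1 of 4 higher (Mrc1) and 1 lower (Chil3), beside 6.98% and 9.33%. Over all kept cells 3 of 10 were higher (Cd163, Lyve1 and Retnla) and 1 lower (Ccl24), beside 3.84% and 7.58%. The set did not move one way: its median log2 ratio was -0.09 in the C1q gate, -0.20 in classical monocytes and 0.03 in the Cd209a gate, where the medians of all genes were -0.05, -0.03 and -0.03. Scaling by TMM factors, run in these 3 gates, shifted the ratios by 0.03 to 0.05 and changed none of their counts.

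**Figure D3:**
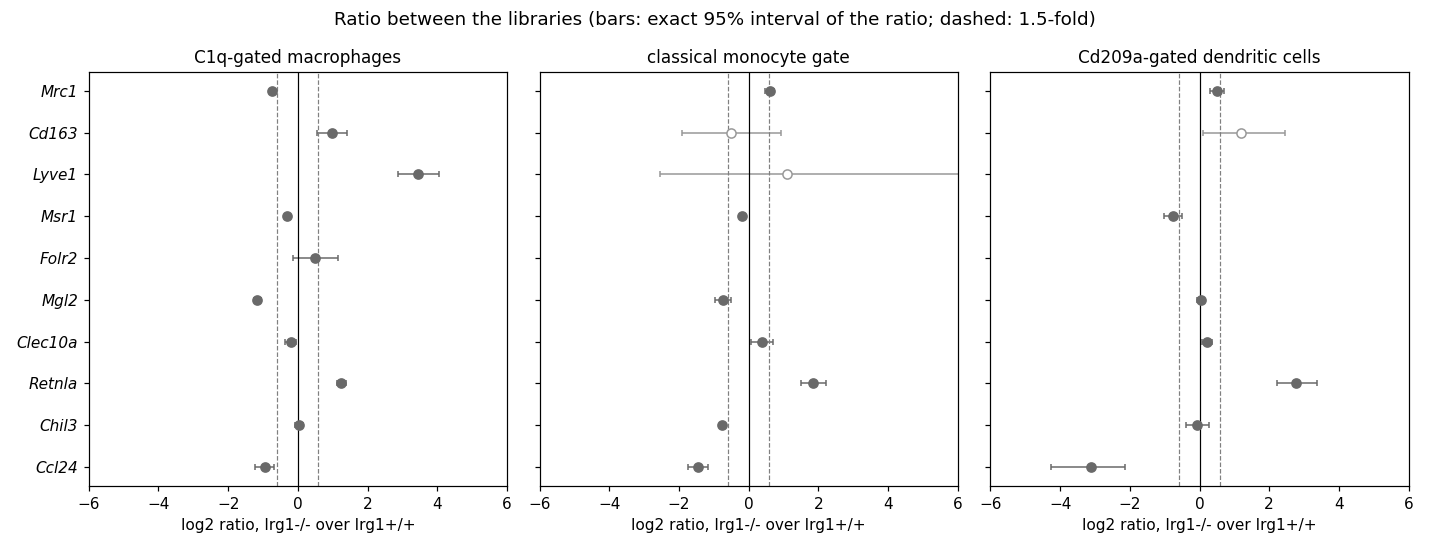
Log2 ratio of the CPM of each gene, Irg1-/- over Irg1+/+, in the C1q, classical monocyte and Cd209a gates; bars are exact 95% intervals of the ratio, filled points reached 50 UMIs, open points did not, dashed lines mark 1.5-fold, and a gene without a UMI in one library has no point. Retnla lies to the right in all 3 gates and Ccl24 to the left, while Mrc1 lies left in macrophages (-0.74) and right in classical monocytes (0.60); the bar of Lyve1 in monocytes runs past the axis.

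Marker lists of other cells moved with the libraries inside the C1q gate. The classical monocyte list summed to 1934 CPM in Irg1+/+ (led by Ccr2) and 3516 CPM in Irg1-/- (led by Ly6c2), the NK cell list to 148 and 369 CPM (led by Gzma at 81.5 and 235 CPM), the T cell list to 502 and 412 CPM (led by Trbc2) and the melanoma list to 190 and 93.5 CPM (led by Dct), with every gene of these 4 lists detected in both. The resident-like list was level at 242 and 235 CPM, led by Cbr2, with Vsig4 at 0 in Irg1+/+. In classical monocytes the NK cell list stood at 165 and 338 CPM (led by Gzma), the melanoma list at 146 and 40.7 CPM (led by Dct), the resident-like list at 26.6 and 61.5 CPM (led by Cbr2, with Vsig4 and Cd5l at 0 in Irg1+/+), the C1q list at 1637 and 1959 CPM (led by Apoe) and the lipid-associated list at 3882 and 2312 CPM (led by Lgals3). In the Cd209a gate the classical monocyte list stood at 2717 and 4216 CPM (led by Plac8) and the resident-like list at 90.5 and 242 CPM, led by Timd4 (70.8 and 221 CPM), with Vsig4 and Cd5l at 0. There the melanoma list was 139 and 36.0 CPM, the T cell list 535 and 327 CPM and the NK cell list 418 and 555 CPM. The NK cell list was 169 and 499 CPM in nonclassical monocytes (led by Gzma). The resident-like list, led by Timd4, was 58.5 and 190 CPM in type 1 and 56.8 and 153 CPM in mature dendritic cells. In nonclassical monocytes, type 1 and mature dendritic cells the melanoma list was 155 and 31.2, 170 and 50.9, and 176 and 59.4 CPM. The part of these shifts in the ratios above was not tested.

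Within the C1q gate, cells were divided by 7 further marker lists, again without the 10 genes. MHC class II cells numbered 163 and 168, hypoxia cells 99 and 76, cycling cells 98 and 45, interferon cells 59 and 93, resident-like cells (Cbr2, Vsig4, Timd4, Fcna, Gas6, Cd5l) 33 and 40, lipid-associated cells 110 and 62 and monocyte-derived cells (Ccr2, Fn1, Plac8, Ear2, Cd226) 52 and 61, while 172 and 172 took no state. Of the 1159 cells with a state, 102 had another score within 0.1. Median depth ran from 8176 UMIs in MHC class II cells to 20570 in cycling cells of Irg1+/+.

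Of the 10 genes, Mrc1, Cd163, Lyve1, Folr2 and Clec10a had their highest level in the resident-like cells in both libraries. Mrc1 reached 2633 CPM (2503 to 2769) in the 33 Irg1+/+ cells, all of which carried it, and 1313 CPM in the 40 Irg1-/- cells, of which 37 did. Cd163 was 44.9 and 178 CPM, Lyve1 32.8 and 410 CPM, and Folr2 15.6 and 31.4 CPM from 9 and 16 UMIs. Cd163 was found in 11 and 20 of the resident-like cells and Lyve1 in 9 and 12. For Cd163 1 cell held 7 of 26 and 32 of 91 UMIs, and for Lyve1 4 of 19 and 48 of 209. Resident-like cells of Irg1+/+ held 32.1% of the Cd163 UMIs of the C1q gate and 65.5% of its Lyve1 UMIs. In Irg1-/- they held 73.4% and 85.0%. Clec10a was 152 and 120 CPM, and its intervals overlapped those of the next state in both libraries, as did those of Folr2. The secreted products and Mgl2 were led by other cells. Monocyte-derived cells had the highest Mgl2 (973 and 359 CPM), Retnla (572 and 1392 CPM, with 307 of 476 and 416 of 939 UMIs in 1 cell) and Chil3 (263 and 273 CPM) in both libraries, lipid-associated cells the highest Msr1 (1442 and 1220 CPM, overlapping cycling cells at 1387 CPM in Irg1+/+), and Ccl24 was highest in hypoxia cells of Irg1+/+ (79.0 CPM, with monocyte-derived cells at 78.2 CPM) and in monocyte-derived cells of Irg1-/- (107 CPM, 46 of 72 UMIs in 1 cell, overlapping the next state).

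**Figure D4:**
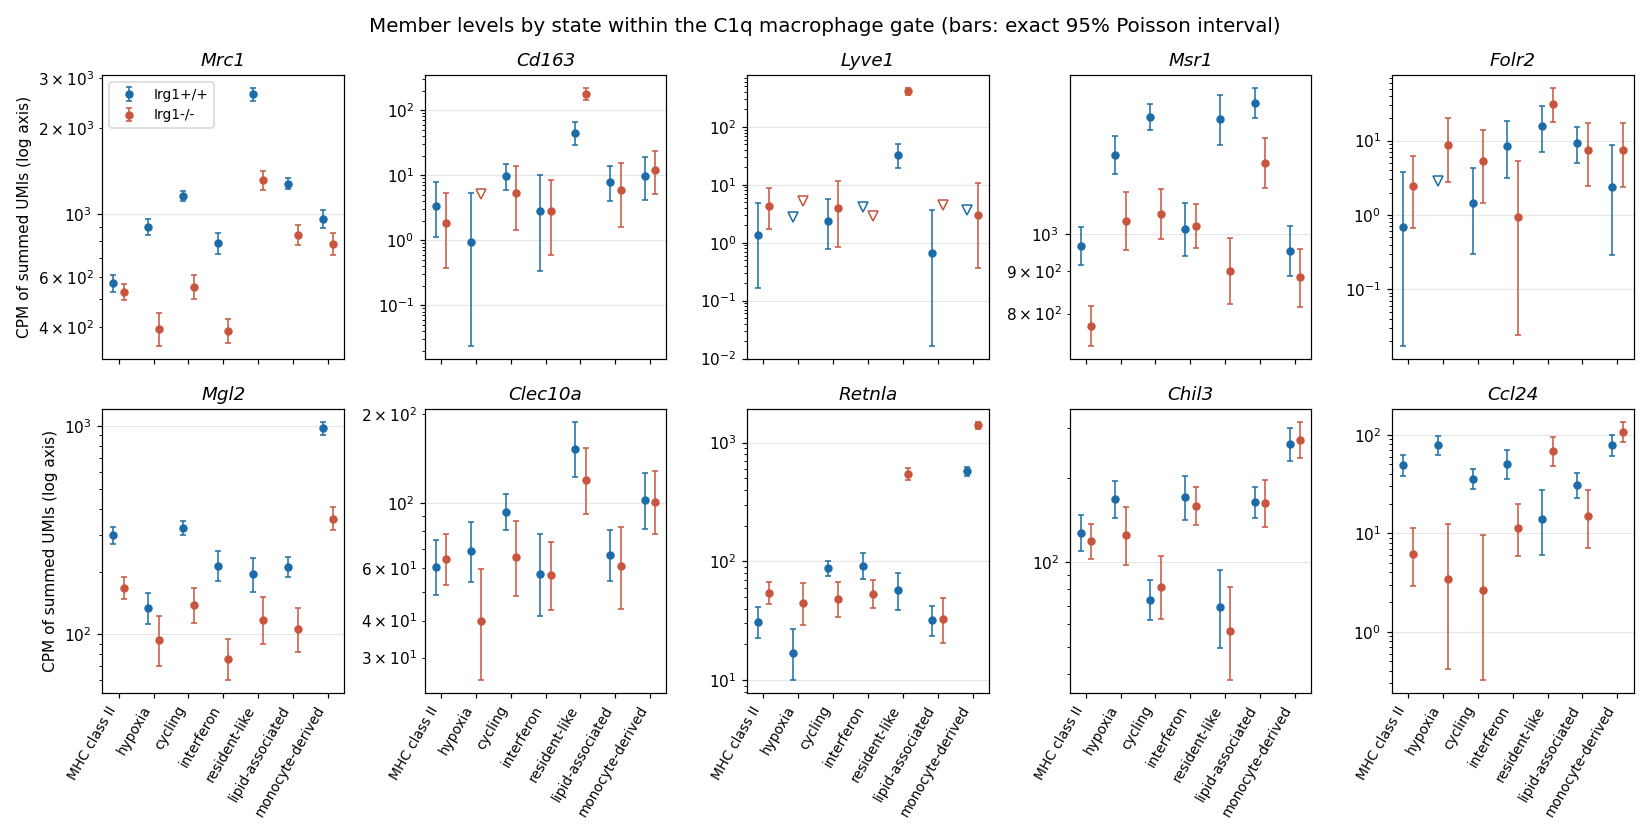
Level of each gene (CPM of summed UMIs, log axis) in 7 states within the C1q gate, for the Irg1+/+ (blue) and Irg1-/- (red) library; bars are exact 95% Poisson intervals and open triangles mark states without a UMI, drawn at the level of 3 UMIs. Mrc1, Cd163 and Lyve1 peak in the resident-like cells and Mgl2 and Retnla in the monocyte-derived cells.

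The libraries also differed from state to state. Mrc1 was lower in Irg1-/- in 6 of the 7 states, most in hypoxia cells (-1.19, -1.41 to -0.98), with -1.0 (-1.14 to -0.87) in resident-like cells. In MHC class II cells its ratio of -0.10 had an interval of -0.24 to 0.04, and the mean of the CPM of each cell was 461 and 535 CPM. Mgl2 was lower in each of the 7, from -0.52 in hypoxia cells to -1.49 in interferon cells. The excess of Cd163 and Lyve1 in Irg1-/- lay for the most part in the resident-like cells (1.99, 1.35 to 2.68, and 3.64, 2.96 to 4.40, or 2.95 and 2.92 as a mean of the CPM of each cell). In the other 6 states no interval of either gene left 0 out, where a ratio could be had, while cells without a state held 2 and 25 UMIs of Lyve1. Retnla had ratios of 3.26 in resident-like cells (2.74 to 3.83, from 33 and 279 UMIs, of which 1 cell held 16 and 1 held 97) and 1.28 in monocyte-derived cells, a ratio that was 1.93 without the top cell of each library. Retnla was also higher in hypoxia cells (1.41, 0.49 to 2.36, from 18 and 26 UMIs) and MHC class II cells (0.82, 0.28 to 1.37, from 45 and 89 UMIs). As a mean of the CPM of each cell the resident-like values were 368 and 514 CPM, a ratio of 0.48. The sums of Retnla were lower in cycling (-0.86) and interferon cells (-0.78) of Irg1-/-, but 1 Irg1+/+ cell held 126 of 182 UMIs in the first and 1 held 48 of 65 in the second. Without the top cell of each library these ratios were 0.26 and 0.81. Ccl24 was higher in resident-like cells (2.31, 1.18 to 3.63, from 8 and 35 UMIs, or 1.44 as a mean of the CPM of each cell) and lower in MHC class II (-3.02), hypoxia (-4.51, from 84 and 2 UMIs), cycling (-3.73, from 74 and 2 UMIs), interferon (-2.15) and lipid-associated cells (-1.05).

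Detection of the genes in the same cell was read after each C1q-gated cell had been thinned to 2000 UMIs, which left 657 Irg1+/+ and 646 Irg1-/- cells. The median cell carried 2 of the 10 genes in either library, 45 and 61 cells carried none, and the highest number was 6, in 1 and 2 cells. In Irg1+/+, in 6 of 63 ordered pairs the second gene was detected in a larger share of the cells with the first gene than of those without it, by intervals that did not overlap, and all 6 joined Mrc1 to Msr1, Mgl2 or Clec10a. Of 404 cells with Mrc1, 86.4% had Msr1 and 29.2% Mgl2, against 72.3% and 12.6% of the 253 cells without it. In Irg1-/-, 7 of 81 ordered pairs passed in this way, and these joined Cd163 and Lyve1 to Mrc1 and to Clec10a. All 14 cells with Cd163 and all 13 with Lyve1 had Mrc1, against 50.8% and 50.9% of the others, and 6 of the 13 had Clec10a (46.2%, 19.2% to 74.9%, against 9.95%). Pairs that start from Cd163 or Lyve1 were read only in Irg1-/-, since too few Irg1+/+ cells kept these genes after thinning (7 and 2 cells, each with Mrc1). Of the 63 pairs read in both libraries, 0 passed in both. Cells with Mrc1 were deeper before thinning than cells without it (medians of 14112.5 and 8463 UMIs in Irg1+/+, 10828 and 9534 in Irg1-/-), while cells with Chil3 were shallower (9838 and 12086 UMIs, 8498 and 10578.5), and the part of depth in the shares was not tested. Without thinning, 71 and 54 of 90 ordered pairs passed, 49 of them in both.

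Across 16 groups of cells (15 gates and the cells without one) in 2 libraries, which makes 32 points that share libraries and depth, each gene was set beside genes of the most similar profile by Pearson's r of log2(CPM + 1), as a description only. Mrc1 ran closest to Dab2 (0.90), Emp1 (0.86) and Lpl (0.83). Msr1 ran with Cndp2 (0.92) and Cd93 (0.92), and Chil3 with Mgst1 (0.90), Vcan (a gate marker, 0.88) and Lyz2 (0.86). Mgl2 was nearest to Asgr2, another galactose-binding lectin (0.80), with Bex6 (0.79) and Dcstamp (0.75) next, and Clec10a to Klra17 (0.81), Cdh1 (0.79) and Eepd1 (0.76). The nearest profiles of the other genes had a lower r: Retnla had Lyz1 (0.75), Fer (0.71) and Dot1l (0.69), Cd163 had Slamf9 (0.72), Pepd (0.68) and Reep5 (0.67), Ccl24 had Spp1 (0.71), Cxcl1 (0.68) and Tfec (0.66), and Lyve1 had Tgs1 (0.60), Fcna (a state marker, 0.60) and Slc13a3 (0.53). Folr2, with too few UMIs to rank well, had Pf4 (0.68), Prune2 (0.66) and Dppa3 (0.62).

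Other genes of the pathway were counted by the same rule. Over all genes the share past 1.5-fold was 3.56% higher and 5.47% lower in the C1q gate, 3.85% and 4.34% in classical monocytes and 4.05% and 4.67% in the Cd209a gate, so a single gene of a list of this size is near the background. In the C1q gate, 9 of 12 further scavenger receptors and mannose receptor relatives reached 50 UMIs. The endocytic receptor Stab1 was lower (295 and 161 CPM, -0.88), Colec12 (22 and 30 UMIs) and Cd5l (20 and 35 UMIs) were higher, and Cd36, the fatty acid and lipoprotein receptor, was 635 and 444 CPM (-0.52), short of 1.5-fold. Of 11 C-type lectins listed, 1 (Cd209a) was higher, at 12.6 and 26.7 CPM. Of 13 secreted products and enzymes, Retnlg was higher (10.0 and 25.2 CPM) and the growth factor Igf1 (198 and 72.1 CPM, -1.46), the chemokines Ccl17 and Ccl22 (84.1 and 52.2 CPM) and the ribonuclease Ear2 were lower. None of the 14 genes of the interleukin-4 and interleukin-13 axis that reached 50 UMIs passed 1.5-fold, and their median log2 ratio was 0.16.

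In classical monocytes, 2 of 7 scavenger receptors and mannose receptor relatives were lower in the library labelled Irg1-/-, Cd36 (244 and 125 CPM, -0.97) and Stab1. So were 2 of 11 lectins, Clec4e (881 and 575 CPM) and Clec4n (504 and 333 CPM). Of 13 secreted products and enzymes 4 were lower, among them Ccl17, Il10 and fibronectin Fn1 (1102 and 696 CPM). Retnlg and the transcription factor Klf4 (238 and 372 CPM, 0.64) were higher. In Cd209a-gated dendritic cells, 2 of 6 genes of the scavenger list, Cd36 (-1.28) and Stab1, and 2 of 11 lectins, Clec4n and Clec5a, were lower. Of 11 secreted products and enzymes 3 were lower there, among them Ccl17 (169 and 73.6 CPM, -1.20) and Il10 (24.9 and 7.19 CPM, -1.79), and Ear2 was higher. Cd36 and Stab1 were the genes of the scavenger list called lower in both of these gates. Stab1 was also lower in the C1q, nonclassical monocyte, type 1 and mature dendritic cell gates. Fn1, Ear2, Cd5l, Ccl22 and Cd209a are also markers of a gate or state, so their counts are not independent of how cells were placed.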

How the data were processed

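The data were 2 single-cell RNA-seq libraries. The authors trimmed reads with fastp, listed cell barcodes with UMI-tools, aligned reads with STAR to the mouse genome of the Ensembl release named in their methods and deposited raw UMI counts per gene and cell (GRCm38 and CASAVA 1.8 stand in the submitters' processing notes). Here, cells with over 200 genes and a mitochondrial share under 10% were kept. UMIs were summed over the cells of a gate and library and given as CPM. Positions came from GENCODE vM21 (GRCm38), where 31107 of 31253 identifiers were found, and promoters from RefSeq.

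Gates used the highest mean z score of a marker list, at least 0.5 with at least 2 markers detected. Ero1a was read under its older symbol Ero1l, and Clec6a and Clec7a were not analysed here. The gate for monocytes in each comparison was the classical one, with nonclassical monocytes beside it. This choice, a minimum of 20 cells per gate and library and the count of 10 leading genes were set after the data had been seen, as were the motifs and the thresholds that picked results for a closer look. The 10 genes, the marker lists and the pathway lists were chosen with earlier results of these data known. The named genes are the 10, Acod1, the listed markers and pathway genes, the paralogs and, for each of the 10, the 3 genes of most similar profile. Results for some of these genes are not reported here. Log2 ratios of counts past 1.5-fold were counted with a pseudocount of 0.5 UMIs and no test was made. Doublets were not called. The fibroblast and lymphatic endothelium gates held too few cells to compare. Python 3.11.15, numpy 2.4.6, scipy 1.17.1, R 4.3.3 and edgeR 4.0.16 (TMM factors only) were used, and the ratio step was tested on simulated data. The alternatives were a stricter cell filter, a gate on marker UMIs, leaving out cells with markers of another lineage, the mean of the CPM of each cell, thinning, TMM, a minimum of 20 UMIs and 2-fold. A gate at 0.25, subtraction of the lymphocyte CPM, leaving out the top cell (in gates and states), the mean of the CPM of each cell within states and leaving out shared barcodes were added after seeing the data.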

Additional observations from a re-analysis of the deposited data

Results flagged for a closer look

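Several genes differed between the libraries in opposite directions in different cells, each past 1.5-fold in the summed counts with an interval on one side of 0. None of these differences between cell types was tested, since each rests on 1 library per genotype. The log2 ratio (Irg1-/- over Irg1+/+) of Mrc1 was 0.60 in classical monocytes (0.03 under a gate on marker UMIs) and -0.74 in C1q-gated macrophages (-0.22 without cells that carried markers of another lineage), and also 1.02 in the neutrophil gate (71.2 CPM from 16 UMIs in Irg1+/+, where lymphocytes had 78.4 CPM) and -1.30 in the eosinophil gate. That of Mgl2 was 1.15 in nonclassical monocytes (38.7 CPM in Irg1+/+, below the 59.1 CPM of lymphocytes) and -1.16 in C1q-gated macrophages. That of Retnla was 2.78 in Cd209a-gated dendritic cells (0.57 under a gate on marker UMIs, 0.04 without cells of another lineage, and 177 of 309 UMIs in 1 Irg1-/- cell) and -0.93 in the eosinophil gate, and within the C1q gate 3.26 in resident-like (0.48 as a mean of the CPM of each cell) and -0.86 in cycling cells, where 1 Irg1+/+ cell held 126 of 182 UMIs and the ratio without the top cells was 0.26. That of Ccl24 was 2.31 in resident-like cells, from 8 and 35 UMIs (18.1 and 49.3 CPM as a mean of the CPM of each cell). In hypoxia cells it was -4.51, from 84 UMIs in Irg1+/+, of which 1 cell held 37, and 2 UMIs in Irg1-/-. Those 2 UMIs make 3.46 CPM, where lymphocytes of Irg1-/- had 3.97 CPM.

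Some genes were well above the lymphocyte level in cells outside the comparisons. The eosinophil gate (89 and 152 cells, median depth 978 and 1094.5 UMIs) had 1407 CPM of Retnla in Irg1+/+ and 739 CPM in Irg1-/-, from 19 and 34 cells, beside 2494 and 2398 CPM of Retnlg. It had 650 and 568 CPM of Chil3. The mast cell gate (21 and 43 cells) held 1 UMI of Retnla in Irg1+/+ and 150 in Irg1-/-, of which 1 cell held 132. Plasmacytoid dendritic cells had 271 and 301 CPM of Clec10a, found in 55 of 81 and 51 of 74 cells. The blood endothelium gate had 357 and 498 CPM of Mgl2, with 92 of 144 and 97 of 228 UMIs in 1 cell of each library.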

How the results depend on the processing

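No paired analysis was possible because each genotype had 1 library and the labels give no replicate numbers. Of 14 ratios past 1.5-fold in the C1q, classical monocyte and Cd209a gates, all 14 stayed past it under TMM, without shared barcodes and without the top cell, 13 under the stricter filter and under a gate at 0.25, 12 with the mean of the CPM of each cell and 11 under the gate on marker UMIs. Thinning kept 11 of 13 and leaving out cells with markers of another lineage 9 of 13. With the lymphocyte level subtracted, 11 of the 14 still had a ratio, and 10 of those 11 stayed past 1.5-fold. The rest had none, since the Irg1+/+ level was no higher than that of lymphocytes. These were Retnla in classical monocytes and Cd209a-gated cells (23.3 and 19.0 against 26.6 CPM). Msr1 in Cd209a-gated cells was the other (169.8 against 170.5 CPM). Among ratios past 1.5-fold, the directions that turned were those of Mgl2 in classical monocytes, at 0.38 under the gate on marker UMIs and 0.13 without cells of another lineage, and within the C1q gate those of Retnla in cycling (0.26) and interferon cells (0.81) without the top cell. Some smaller ratios turned as well, among them, as a mean of the CPM of each cell, Mrc1 in MHC class II cells (from -0.10 to 0.22) and Retnla in lipid-associated cells (from 0.03 to -1.13), and, without the top cell, Ccl24 in monocyte-derived cells (from 0.45 to -0.42). Leaving out cells with markers of another lineage removed 7418 of 12078 cells and kept 189 and 150 C1q-gated ones.

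These counts moved by over 1.5 times. In the C1q gate, the genes higher in Irg1-/- were 1 without cells of another lineage and 1 after thinning, and those lower were 1 without cells of another lineage and 1 at 2-fold. In classical monocytes, those higher were 1 without cells of another lineage, 1 at 2-fold and 1 with a gate at 0.25, and those lower were 1 at 2-fold. In Cd209a-gated dendritic cells, those higher were 2 with a minimum of 20 UMIs and 2 with the lymphocyte level subtracted, and those lower were 1 under the gate on marker UMIs, without cells of another lineage, after thinning, at 2-fold, without the top cell and with the lymphocyte level subtracted. The genes highest in the C1q gate were 3 without cells of another lineage in either library and 3 after thinning in Irg1+/+. Without cells of another lineage, those highest in resident-like cells of Irg1+/+ were 2, those highest in monocyte-derived cells of Irg1-/- were 1, and 0 ordered pairs passed in either library. With all UMIs, 71 and 54 pairs passed. The cause of these moves was not tested. The counts with the lymphocyte level subtracted kept Retnla as higher in classical monocytes and Cd209a-gated cells, where no Irg1+/+ level was left. Depth limits Folr2, Lyve1 and Cd163 most.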
